A study of Mus musculus with 8 samples.

Results

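A set of 10 genes that mark the endothelial cells of the liver sinusoid was followed in isolated hepatocytes of mice with and without the hepatocyte cannabinoid 1 receptor. The genes are *Stab2*, *Lyve1*, *Clec4g*, *Fcgr2b*, *Mrc1*, *Kdr*, *Pecam1*, *Oit3*, *Dnase1l3* and *Cdh5*, chosen by name. Every non-control probe of the array whose accession belongs to one of them was taken, which gave 11 of 55681 probes and 10 of 21368 named genes. *Kdr* has 2 probes and each other gene has 1.

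RNA of isolated hepatocytes came from 4 hCNR1_WT mice (hCNR1+/+, strain label CNRO) and 4 hCNR1_cKO mice (hCNR1-/-, strain label CNRO Alb-Cre). All were male, 12 to 14 weeks old, untreated as far as the labels say and on the standard diet. The hCNR1-/- mice carry a floxed *Cnr1* allele and a Cre driven by the albumin promoter, which is active in hepatocytes, and the hCNR1+/+ mice are littermates, so the deletion is aimed at hepatocytes and not at endothelium. Whether the hCNR1+/+ mice carry floxed alleles is not in the labels. Each mouse had 1 single-colour Agilent array. The *Cnr1* probe was well above background on 0 of 8 arrays, so the genotype of each array rests on its label. All 12 genes of a hepatocyte marker list, *Alb* (albumin) and *Fgb* (fibrinogen beta chain) among them, passed the background filter and were tested.

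Liver sinusoids are lined by a specialised endothelium without a continuous basement membrane, with open pores that let plasma reach the hepatocytes. These cells are among the most active scavengers of the body. They take up hyaluronan, modified proteins and small immune complexes through receptors such as stabilin-2, the mannose receptor and the Fc gamma receptor IIb. Like all blood endothelium they carry VE-cadherin, PECAM-1 and the receptor for vascular endothelial growth factor. Hepatocytes are not known for making most of these transcripts. In RNA from a whole preparation, fewer endothelial cells and less RNA per endothelial cell cannot be told apart.

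Levels are given as log2 of the deposited intensity minus the 75th percentile of that array, so a level of 0 is the intensity below which 75% of spots fall. They are compared between arrays for a probe. Probes are compared with each other only in taking the brightest of a gene and in choosing some genes to name. Mean levels over several genes average different probes. The arrays differed in brightness. The 75th percentile of intensity ran from 62.0 to 139 on the hCNR1+/+ arrays and from 29.3 to 124 on the hCNR1-/- arrays, and replicate 4 was the dimmest of each genotype. On hCNR1-/- replicate 4, 28.6% of spots were well above background, against as much as 42.3% on hCNR1+/+ replicate 1. Log2 fold changes of single genes that moved by more than 1.5 times, or changed their call, without hCNR1-/- replicate 4 are given both ways.

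**Figure D1:**
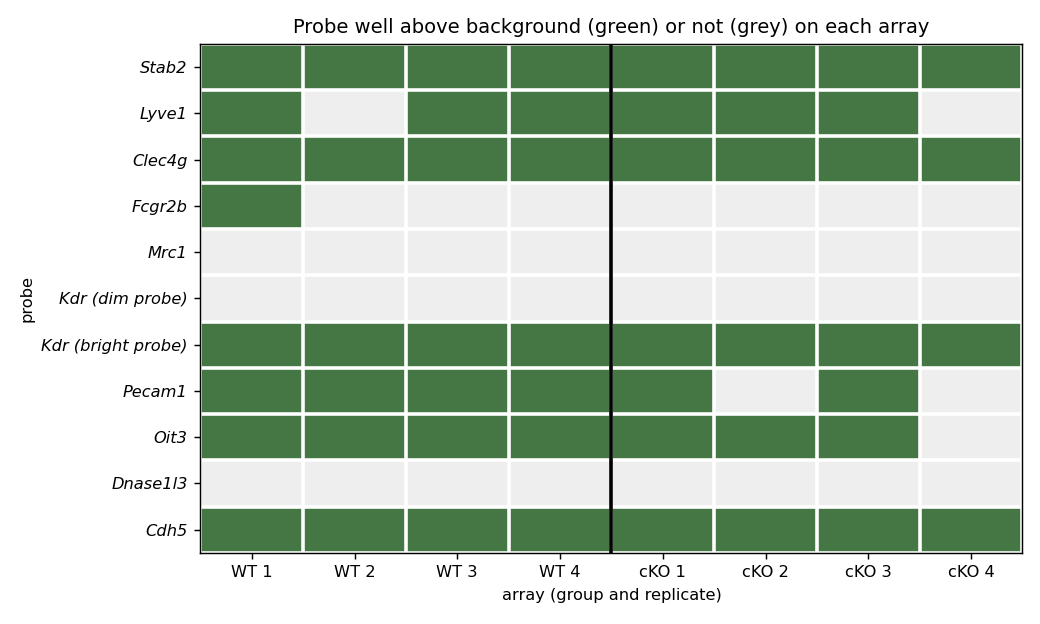
Each row is a probe of the 10 genes and each column an array, green where the scanner software called the probe well above background and grey where it did not. *Stab2*, *Clec4g*, *Cdh5* and the bright *Kdr* probe were green on all 8 arrays, while *Mrc1*, *Dnase1l3* and the dim *Kdr* probe were green on 0 of 8.

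Endothelial transcripts were present in preparations of both genotypes. Of the 10 genes 7 were tested, because their probe exceeded background clearly on 4 or more of the 8 arrays. This is a share of 70% against 51.8% of all named genes. Lists that leave out the members gave 23.1% of 13 further sinusoidal genes, 61.1% of 18 general endothelial genes and 12.5% of 8 genes of larger vessels. The probes of *Stab2*, *Clec4g*, *Cdh5* and the bright *Kdr* probe were measured on all 4 arrays of each genotype. *Oit3* was measured on 4 of 4 hCNR1+/+ and 3 of 4 hCNR1-/- arrays, *Lyve1* on 3 of 4 of each, and *Pecam1* on 4 of 4 and 2 of 4. The arrays on which *Oit3*, *Lyve1* or *Pecam1* was not well above background were hCNR1-/- replicate 4 for each of the 3 genes, hCNR1-/- replicate 2 for *Pecam1* and hCNR1+/+ replicate 2 for *Lyve1*. There the value is a level near background rather than a measured one.

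None of the 7 tested genes differed between the genotypes at an adjusted p below 0.05 (limma, Benjamini-Hochberg over 11072 genes). Across all tested genes 1.3% were called lower and 2.94% higher in hCNR1-/- hepatocytes at that threshold. With a fold change of more than 2 and p below 0.05 before adjustment, the count among the 7 was also 0, against 3.75% of all tested genes lower and 4.78% higher. At an unadjusted p below 0.05 alone, *Pecam1* was lower and no member was higher, against 6.92% and 14.7% of all tested genes. Of the 7 log2 fold changes 5 lay below 0 and the other 2 above it, with a median of -0.35, beside a median of 0.08 over all tested genes. Without hCNR1-/- replicate 4 the median of the 7 was -0.14, beside 0.175 over all tested genes. The levels of the 2 genotypes overlapped for each of the 7, where 5.04% of all tested genes had every hCNR1-/- array below every hCNR1+/+ array and 12.7% the reverse. For *Pecam1* the overlap rests on hCNR1-/- replicate 4 alone, where its probe was not well above background.

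**Figure D2:**
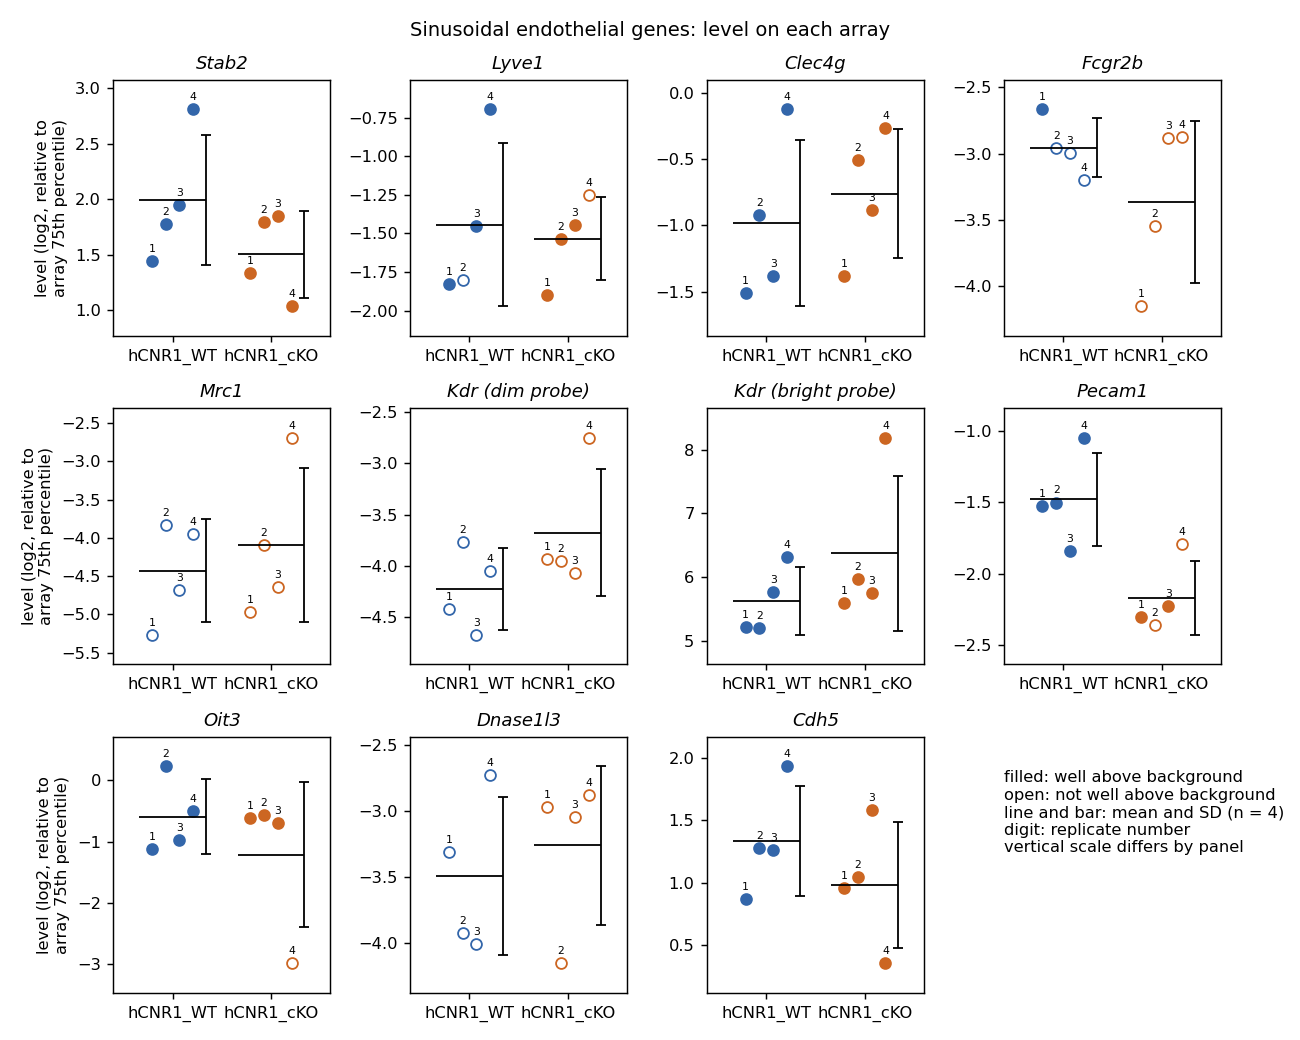
Each panel shows the log2 level of a probe relative to the 75th percentile of its array for 4 hCNR1+/+ (hCNR1_WT) and 4 hCNR1-/- (hCNR1_cKO) arrays, with the mean and SD; open points were not well above background, and the vertical scale differs by panel. *Pecam1* shows the clearest offset between the groups, with ranges that overlap only between hCNR1+/+ replicate 3 (-1.84) and hCNR1-/- replicate 4 (-1.79, not well above background). Replicate 4 of the hCNR1-/- group sits apart for *Kdr* and *Oit3*.

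*Pecam1*, which encodes the adhesion molecule PECAM-1 (CD31) at endothelial junctions and is also carried by platelets and leukocytes, had levels of -1.52, -1.50, -1.84 and -1.05 in hCNR1+/+ replicates 1 to 4. In hCNR1-/- replicates 1 to 4 its levels were -2.30, -2.36, -2.22 and -1.79. The hCNR1-/- replicates 1 to 3 lay below every hCNR1+/+ array, and replicate 4 lay 0.05 above the lowest of them. That replicate 4 value was not well above background, so it does not measure an overlap. The log2 fold change was -0.69 ± 0.24 (SE) with a 95% confidence interval of -1.22 to -0.16, a 1.61-fold lower mean in hCNR1-/- hepatocytes, with an unadjusted p of 0.0157 and an adjusted p of 0.129 in limma. An exact permutation test, which goes through all 70 ways to split the 8 arrays evenly, gave a two-sided p of 0.0571. The smallest p it can give is 0.0286.

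The *Pecam1* difference is the only one among the 7 whose call depended on a setting. Without hCNR1-/- replicate 4 the log2 fold change was -0.82 with an adjusted p of 0.0366 in limma, and with arrays weighted by their quality it was -0.64 with an adjusted p of 0.0196. Across the settings that kept all 8 arrays the adjusted p of *Pecam1* reached 0.862, under normexp background correction, where the log2 fold change was -0.17. The difference was negative in every setting in which *Pecam1* could be tested, and it was left out where a probe had to be well above background on all 8 arrays. Of the 4 hCNR1-/- values 2 were not well above background.

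*Cdh5*, which encodes VE-cadherin, the adhesion protein of endothelial adherens junctions, had levels of 0.87, 1.28, 1.26 and 1.93 in hCNR1+/+ replicates 1 to 4. In hCNR1-/- replicates 1 to 4 they were 0.96, 1.04, 1.59 and 0.35. The lowest and the highest of the 8 arrays were the replicate 4 arrays, hCNR1-/- and hCNR1+/+. Its log2 fold change was -0.35, with a 95% confidence interval of -1.06 to 0.35 (limma, adjusted p = 0.551), and moved to -0.14 without hCNR1-/- replicate 4 and to -0.15 without hCNR1+/+ replicate 4.

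*Kdr* encodes the main signalling receptor for vascular endothelial growth factor A. Its bright probe had levels of 5.22, 5.21, 5.77 and 6.31 in hCNR1+/+ replicates 1 to 4, and of 5.61, 5.98, 5.75 and 8.18 in hCNR1-/- replicates 1 to 4. The other 7 arrays ran together and hCNR1-/- replicate 4 stood above them. This gave a log2 fold change of 0.75 ± 0.55 (SE) with a 95% confidence interval of -0.48 to 1.99 (limma, adjusted p = 0.464), and of 0.15 without hCNR1-/- replicate 4.

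Before scaling between arrays, the intensity of the bright *Kdr* probe ran from 4934 to 6036 on the other 7 arrays and was 8508 on hCNR1-/- replicate 4. That array had the lowest 75th percentile, so scaling widened the gap. The second *Kdr* probe has the same accession and was well above background on 0 of 8 arrays, so the probes disagree on whether *Kdr* was detected. The probes' sequences were not analysed here, so which of them reads the transcript was not tested, and the *Kdr* value rests on 1 of 2 probes.

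Scavenger receptors made up the next set. *Stab2*, the stabilin that clears hyaluronan and other ligands from blood, had levels of 1.44, 1.77, 1.94 and 2.81 in hCNR1+/+ replicates 1 to 4. In hCNR1-/- replicates 1 to 4 they were 1.33, 1.79, 1.85 and 1.03. Replicates 1 to 3 of the genotypes lay side by side, and the difference came mainly from the replicate 4 arrays, which held the highest and the lowest value. The log2 fold change was -0.49 ± 0.32 (SE), with a 95% confidence interval of -1.22 to 0.24 (limma, adjusted p = 0.417). It was -0.34 without hCNR1-/- replicate 4, -0.22 without hCNR1+/+ replicate 4 and -0.06 without both.

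*Lyve1*, a hyaluronan receptor shared with lymphatic endothelium and some macrophages, had levels of -1.83, -1.80, -1.45 and -0.70 in hCNR1+/+ replicates 1 to 4. Its levels in hCNR1-/- replicates 1 to 4 were -1.90, -1.54, -1.44 and -1.25. The hCNR1-/- range lay almost wholly inside the hCNR1+/+ range. For *Lyve1* the log2 fold change was -0.09, with a 95% confidence interval of -0.74 to 0.56 (limma, adjusted p = 0.884). Its sign turned without hCNR1+/+ replicate 4 (0.16) or hCNR1-/- replicate 1 (0.03), and it was -0.18 without hCNR1-/- replicate 4, so the arrays give *Lyve1* no direction, and the interval leaves room for a 1.47-fold higher or a 1.67-fold lower mean.

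*Clec4g*, the lectin LSECtin of sinusoidal endothelium, had levels of -1.51, -0.92, -1.39 and -0.12 in hCNR1+/+ replicates 1 to 4. In hCNR1-/- replicates 1 to 4 they were -1.38, -0.51, -0.88 and -0.26. All 4 hCNR1-/- arrays lay within the hCNR1+/+ range, and the brightest level of each genotype was that of replicate 4. For *Clec4g* the log2 fold change was 0.23, with a 95% confidence interval of -0.58 to 1.03 (limma, adjusted p = 0.744), and it was -0.33 with no scaling between arrays, where the median of all genes itself lay at -0.47. It was 0.050 without hCNR1+/+ replicate 1, 0.060 without hCNR1-/- replicate 4, 0.091 without hCNR1+/+ replicate 3 and 0.51 without hCNR1+/+ replicate 4, so its size rests on single arrays.

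*Fcgr2b*, the inhibitory Fc receptor that takes up small immune complexes and is also made by macrophages and B cells, was well above background on hCNR1+/+ replicate 1 alone. Its levels ran from -3.20 to -2.67 in hCNR1+/+ and from -4.15 to -2.88 in hCNR1-/- hepatocytes. *Mrc1*, the mannose receptor, which Kupffer cells also carry, was well above background on 0 of 8 arrays. No fold change is given for either, because neither has a measured level in hCNR1-/- hepatocytes.

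Secreted products of these cells came last. *Oit3*, a liver protein with a zona pellucida domain used as a sinusoidal marker, had levels of -1.13, 0.23, -0.98 and -0.51 in hCNR1+/+ replicates 1 to 4. In hCNR1-/- replicates 1 to 4 they were -0.61, -0.56, -0.70 and -2.98. The first 3 hCNR1-/- arrays lay within the hCNR1+/+ range, and replicate 4 was at background, with an unscaled intensity of 3.70 against 43.6 to 163 on the other 7 arrays. The log2 fold change of -0.62, with a 95% confidence interval of -1.86 to 0.62 (limma, adjusted p = 0.551), became -0.03 without that array and -0.34 without hCNR1+/+ replicate 2. *Dnase1l3*, a secreted nuclease that digests DNA in chromatin, was well above background on 0 of 8 arrays, so it is given no fold change.

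**Figure D3:**
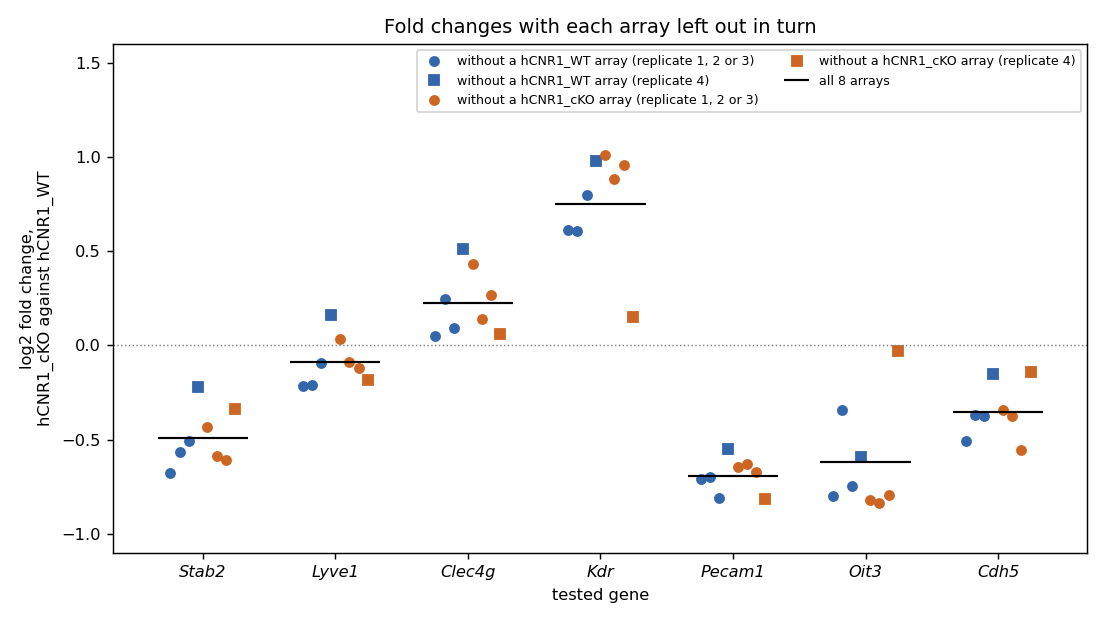
Log2 fold change of each tested gene with 1 array left out in turn (points, coloured by the genotype of the array left out; squares mark replicate 4) and with all 8 arrays (black line). Leaving out hCNR1-/- replicate 4 moved *Kdr* from 0.75 to 0.15 and *Oit3* from -0.62 to -0.03, while *Pecam1* stayed between -0.82 and -0.55.

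The arrays of replicate 4 stood at the ends of most of these ranges. The highest level of 5 of the 7 tested genes was on hCNR1+/+ replicate 4. The lowest level of 3, *Stab2*, *Oit3* and *Cdh5*, and the highest of 1, *Kdr*, were on hCNR1-/- replicate 4. The mean level over the 7 genes ran from 0.22 to 1.24 on the hCNR1+/+ arrays and from 0.24 to 0.56 on the hCNR1-/- arrays. With *Kdr* included, the hCNR1-/- arrays thus lay within the hCNR1+/+ range. For hCNR1-/- replicates 1 and 4 this place rests on their *Kdr* levels of 5.61 and 8.18, which come from 1 of 2 *Kdr* probes. Without replicate 4 of both genotypes, a comparison chosen after seeing the data, the median log2 fold change of the 7 genes was 0.06, beside 0.21 for all genes, and *Pecam1* was the only member called (log2 fold change -0.67; limma, adjusted p = 0.0253).

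Other endothelial genes were read from lists that leave out the 10 members. Of 13 further sinusoidal genes 3 could be tested, and 8 were well above background on 0 of 8 arrays, among them the receptor genes *Flt4* and *Tek* and the Wnt ligand genes *Wnt2* and *Wnt9b*. None of the 3 was called in either direction, and their median log2 fold change was -0.18. *Stab1*, the stabilin shared with macrophages, had a log2 fold change of -0.18 (limma, adjusted p = 0.692), with a 95% confidence interval of -0.72 to 0.35. *Gata4*, the transcription factor that keeps sinusoidal endothelium in its liver state and is also made by hepatocytes, had one of 0.01 (limma, adjusted p = 0.987), with an interval of -0.54 to 0.56. *Gpr182*, an endothelial chemokine scavenger, had one of -0.42 (limma, adjusted p = 0.694), with an interval of -1.67 to 0.83. Without hCNR1-/- replicate 4 the values were -0.31 for *Stab1*, 0.22 for *Gata4* and -0.94 for *Gpr182*, and none of the 3 was called.

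Of 18 genes of endothelium in general 11 could be tested, with 6 log2 fold changes below 0 and 5 above it, a median of -0.03 and 0 called in either direction at an adjusted p below 0.05 (limma). Without hCNR1-/- replicate 4 their median was -0.07. The 3 with the smallest p were *S1pr1*, *Esam* and *Flt1*. *S1pr1*, the receptor for sphingosine 1-phosphate, had a log2 fold change of 0.78 (unadjusted p = 0.0382 and adjusted p = 0.202 in limma), with a 95% confidence interval of 0.05 to 1.50. *Esam*, a tight junction adhesion molecule, had one of -0.58 (limma, adjusted p = 0.327), and *Flt1*, the decoy receptor of the vascular endothelial growth factor family, had one of -0.81 (limma, adjusted p = 0.394). *Flt1* was not well above background on hCNR1-/- replicate 4, its lowest array, and its log2 fold change was -0.40 without that array and -0.39 without hCNR1+/+ replicate 4.

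*Plvap*, a component of endothelial diaphragms, was the 1 gene of 8 from the list of larger vessels that could be tested, with a log2 fold change of -0.42 (limma, adjusted p = 0.35). The other 7 included *Cd34*, *Selp*, *Sele*, *Gja5*, *Efnb2* and *Ackr1*, which were well above background on 0 of 8 arrays.

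Ligands through which hepatocytes and other liver cells act on endothelium were listed as well. Of 14 ligand genes 10 could be tested, 5 with a log2 fold change below 0 and 5 above it, with a median of 0.04 and 0 called at an adjusted p below 0.05 (limma). *Vegfa*, the growth factor that binds the *Kdr* product, had levels from 3.12 to 4.86 in hCNR1+/+ and from 2.64 to 3.87 in hCNR1-/- hepatocytes, with a log2 fold change of -0.66 (limma, adjusted p = 0.361). *Angptl4*, a secreted inhibitor of lipoprotein lipase, had one of 0.40 (limma, adjusted p = 0.282).

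**Figure D4:**
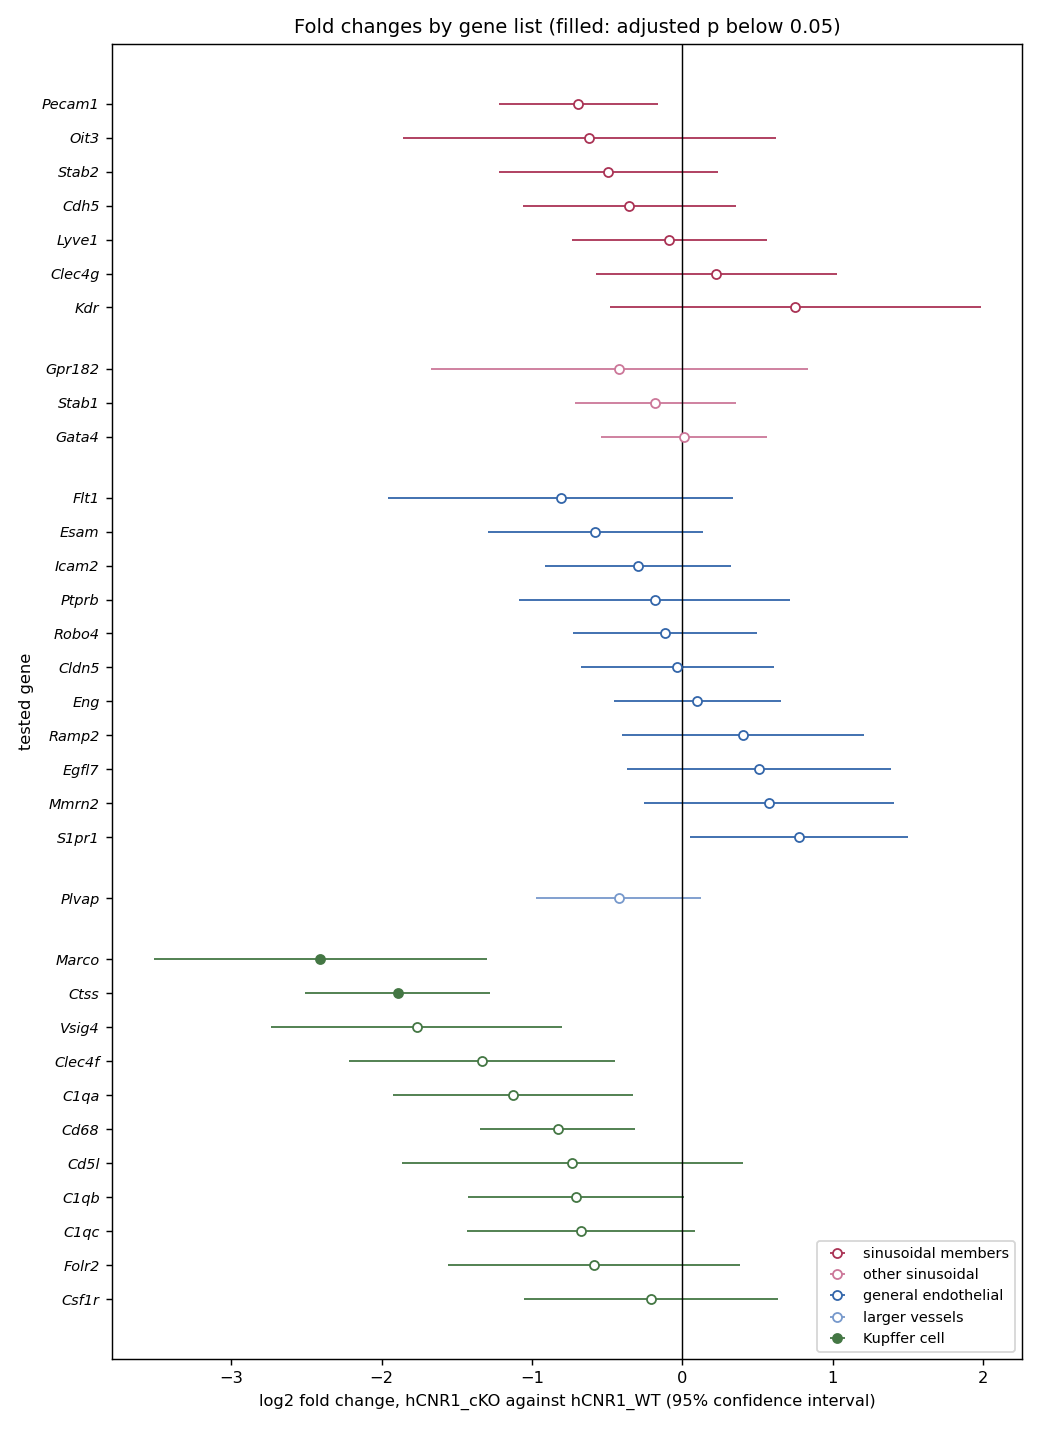
Log2 fold change of hCNR1-/- (hCNR1_cKO) against hCNR1+/+ (hCNR1_WT) with its 95% confidence interval for each tested gene of the endothelial and Kupffer cell lists; filled points passed an adjusted p below 0.05. The endothelial genes lie on both sides of 0, whereas all 11 Kupffer cell genes lie below it, with *Marco* and *Ctss* filled.

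Markers of other cells that a hepatocyte preparation can hold were read beside these values. Of 14 Kupffer cell genes 11 could be tested, and *Timd4* and *Cd163* were well above background on 0 of 8 arrays. All 11 had a log2 fold change below 0, as had 4808 of the 11072 tested genes. The median of the 11 was -0.83, and 2 were called lower. *Marco*, a macrophage scavenger receptor, had a log2 fold change of -2.41 (limma, adjusted p = 0.0336), with a 95% confidence interval of -3.52 to -1.30. *Ctss*, the lysosomal protease cathepsin S, had one of -1.89 (limma, adjusted p = 0.0124), with an interval of -2.51 to -1.28. On hCNR1-/- replicates 2 and 4 *Ctss* was not well above background, so 2 of the 4 values behind that mean lie near background. With an array left out, the adjusted p in limma reached 0.0968 for *Marco* and 0.0568 for *Ctss*.

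The mean level of the 11 Kupffer cell genes ran from 1.10 to 2.35 on the hCNR1+/+ arrays and from 0.05 to 0.90 on the hCNR1-/- arrays, ranges that did not overlap, where those of the 7 sinusoidal genes did. *Cd68*, the general macrophage marker, had a log2 fold change of -0.83 (limma, adjusted p = 0.0738), and *Csf1r*, the receptor for colony stimulating factor 1, one of -0.21 (limma, adjusted p = 0.776). Without hCNR1-/- replicate 4 *Cd68* was called lower at -0.87 (limma, adjusted p = 0.0395), and *Csf1r* was at -0.52. In that setting 4 genes of the list were called lower, *Cd68*, *Ctss*, *Marco* and *Vsig4*, the last named after its values were seen. Without hCNR1+/+ replicate 4 the sign of *Csf1r* turned (0.05). The number of Kupffer cell genes called lower went from 0 to 7 over 31 other settings and was 0 in 12 of them. These were the replicate block, no scaling, normexp, no filter and leaving out hCNR1+/+ replicate 3. The rest were the unscaled fits with an array left out, except the fit without hCNR1-/- replicate 4. Whether the Kupffer cell and sinusoidal lists differ in their shift, and the part of Kupffer cells in the values of *Pecam1*, *Lyve1* and *Stab1*, were not tested.

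Genes of the remaining cell types were mostly below the level that could be tested. Of 10 stellate cell genes 2 could be tested, with *Ecm1* at a log2 fold change of -0.23 and *Dcn* at -0.91, and neither was called, while without hCNR1-/- replicate 4 *Dcn* was called lower at -1.36 (limma, adjusted p = 0.0135). Of 10 lymphocyte genes 2 could be tested, *Cd3e* at 0.90 and *Nkg7* at 0.45 (0.57 and 0.14 without hCNR1-/- replicate 4), while the B cell genes *Cd79a*, *Cd79b* and *Ms4a1* were well above background on 0 of 8 arrays. Of 6 neutrophil genes 1 could be tested, *Csf3r* at -0.80 (limma, adjusted p = 0.0722), which was called lower without hCNR1-/- replicate 4 at -0.92 (limma, adjusted p = 0.0196). The neutrophil genes *S100a9*, *Retnlg* and *Mpo* were well above background on 0 of 8 arrays, so *Csf3r* stands alone for that list. Of 5 cholangiocyte genes 2 could be tested, *Sox9* at 0.42 and *Spp1* at -0.73, and neither was called. Without hCNR1-/- replicate 4 *Sox9* was called higher at 1.02 (limma, adjusted p = 0.0316).

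Of the 12 hepatocyte genes 8 had a log2 fold change below 0 and 4 above it, with a median of -0.26. *Alb* had a log2 fold change of -0.23 and *Fgb* of -0.01 (limma, adjusted p = 0.538 and 0.991), the latter -0.02 without hCNR1-/- replicate 4. *Apob*, the apolipoprotein of very low density lipoprotein, was the 1 called, at 1.63 (limma, adjusted p = 0.0477), and its adjusted p reached 0.143 with an array left out. *Ass1* (-1.14) and *Tdo2* (-1.03), enzymes of the urea cycle and of tryptophan breakdown named after their values were seen, were lower by more than 2-fold with p below 0.05 before adjustment (limma, adjusted p = 0.08 and 0.205). The part of these cell types in the sinusoidal values was not tested. The slide holds the hCNR1+/+ arrays in its first row and the hCNR1-/- arrays in its second, so the row of the slide and the genotype cannot be told apart.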

How the data were processed

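Hepatocyte RNA of 4 hCNR1+/+ and 4 hCNR1-/- mice was hybridised to single-colour Agilent arrays, all on 1 slide. The authors deposited spot intensities from Agilent Feature Extraction 12.0.3.1, which corrects background within an array and applies no scaling across arrays. The deposited value table holds a score for every spot, found to differ by at most 0.005 from the array-wise z-score of the log intensity. Levels are log2 intensities minus the array's 75th percentile over 59305 non-control spots, averaged over the spots of a probe that carried no outlier flag. A probe counted as well above background where at least 50% of its spots had the software's flag. RefSeq names of GRCm38.p6 were given to 28331 of 55681 probes through their unversioned accessions. The array design uses another build, so no coordinates are given. Genes whose probe was so on 4 or more of the 8 arrays were tested, with the brightest probe, by lmFit and eBayes of limma 3.58.1 in R 4.3.3, two-sided, with Benjamini-Hochberg adjustment over 11072 genes. The fit was tested on simulated data with independent noise and no dim array, so that test does not bear on hCNR1-/- replicate 4 or on probes near background.

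The members, the gene lists and the settings were chosen with earlier results of these data known. All 10 members were named. Of the other endothelial and ligand lists, genes with an adjusted p below 0.05 and the 3 with the smallest p were named. Of each other cell type list, the 2 tested genes with the brightest probes and any with an adjusted p below 0.05 were named, as was *Cnr1*. A ligand gene that this rule names is not reported here. Genes named only as not well above background were chosen after their values were seen. The alternatives were other scalings, the deposited score, normexp on the median signal of each spot, other filters, the mean of probes, each probe on its own, array weights, other variance models, the replicate number as a block and each array left out. Precision is limited by 4 arrays per genotype.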

Additional observations from a re-analysis of the deposited data

Results flagged for a closer look

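In a group of 4 arrays, a value was picked out where its gap to the nearest of the others was a large part of the group's range by Dixon's test. Of 62 groups examined 5 were picked out, where chance alone gives about 1 in 20. The level of *Kdr* was 8.18 on hCNR1-/- replicate 4, against 5.61 to 5.98 on the other 3 hCNR1-/- arrays. *Oit3* was at -2.98 on the same array, against -0.70 to -0.56, and was not well above background there. *Flt1* was at -2.44 on that array too, against -0.89 to -0.64, and was likewise not well above background. *Gpr182* was at 2.29 on hCNR1+/+ replicate 4, against 0.79 to 0.99. *Cd3e* was also at 2.29 on hCNR1+/+ replicate 4, against 1.84 to 1.89.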

How the results depend on the processing

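Of the 7 tested members, each kept its side of the adjusted p threshold of 0.05 in every setting in which it could be tested, except *Pecam1*, called lower with array weights, without hCNR1-/- replicate 4, and without replicate 4 of both genotypes (adjusted p = 0.0196, 0.0366 and 0.0253; 1 member called lower in each, against 0). With no scaling, where the median of all genes lay at -0.47, *Pecam1* had a log2 fold change of -1.25. It was then past a fold change of 2 with p below 0.05, 1 member against 0, while its adjusted p in limma was 0.731. The number called higher was 0 in every setting. Stricter filters left *Lyve1* out of 2 settings, and *Pecam1* and *Oit3* out of 1.

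The median log2 fold change of the members was -0.91 with no scaling, where the median of all genes was -0.47. With array weights it was -0.044, beside 0.182 for all genes, and it ran from -0.55 to -0.14 with each array left out. Signs turned for *Clec4g* with no scaling (-0.33; up to 0.513 without hCNR1+/+ replicate 4), for *Oit3* with array weights (0.02), and for *Lyve1* without hCNR1+/+ replicate 4 (0.161) or hCNR1-/- replicate 1 (0.033), over a range of -0.216 to 0.161 with each array left out. The removal of replicate 4 from both genotypes and the unscaled fits with an array left out were chosen after seeing the data. Without replicate 4 of both genotypes the median was 0.057, with *Lyve1* at 0.068, *Oit3* at 0.000 and *Cdh5* at 0.057. With no scaling and each array left out, the median ran from -1.24 to -0.26, *Clec4g* from -0.461 to -0.062, *Lyve1* from -0.802 to -0.304, and the number past a fold change of 2 with p below 0.05 from 0 to 1. That median was lowest without hCNR1-/- replicate 3, beside -0.611 for all genes, and highest without hCNR1-/- replicate 4, beside 0.053. The causes of these changes were not tested. With the replicate block, *Pecam1* stayed at -0.69 (adjusted p = 0.154) and 0 members were called. After scaling, deviations of same-numbered arrays from their group means correlated at 0.21, -0.16, -0.05 and 0.02. With 1 pair of arrays per number, these values cannot settle whether the replicate numbers pair the arrays. For dim probes the background limits what can be measured: the lowest level well above background was -0.85 on hCNR1-/- replicate 4, against -3.27 to -1.90 on the other arrays.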
